A study of Mus musculus with 6 samples.

Results

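The olfactomedin domain genes studied here are Olfm1, Olfm2, Olfm3, Olfml1, Olfml2a, Olfml2b and Olfml3, 7 of the 19938 genes measured in mouse N2A cells. The set was selected on the values of Olfml3, whose fall after Pax6 knockdown in these same arrays raised the question whether its paralogs fell too. The values of Olfml3 are therefore given as a description without a test, and the paralogs were taken by their gene names. Each member was represented by 1 probe set. N2A (neuro 2A) is an established mouse neuroblastoma line, and all cultures were grown in DMEM with fetal bovine serum and transiently transfected with 1.5 µg of a short hairpin RNA vector by the reagent FuGENE 6. The 3 control cultures received a vector with no target and the 3 Pax6 knockdown cultures a vector against Pax6, the gene of a paired domain and homeodomain transcription factor of the developing brain and eye. Total RNA was taken 3 days later, and 200 ng per sample was labelled for an array that covers whole transcripts. Per the study's methods, a U6 promoter drove the hairpin, in a plasmid that also carried an eGFP gene. As a model this is 1 cell line, and no selection of transfected cells is described in the labels, so each array averages over cells with and without vector. The submitters call the samples biological replicates, and the p-values measure the spread between these cultures.

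Olfactomedin domain proteins are mostly secreted glycoproteins that share a C-terminal beta-propeller, the fold in which myocilin mutations cause glaucoma. Olfm1, Olfm2 and Olfm3 encode the noelins, neuronal proteins that bind AMPA receptor complexes and, for Olfm1, the Nogo receptor. Olfml2a and Olfml2b encode the photomedins, extracellular proteins that bind chondroitin sulphate. Olfml3 encodes a matrix protein whose frog and chick relative brings the tolloid protease BMP1 to its substrate chordin, and in brain it is best known from microglia. Olfm3, also called optimedin, has been described in the eye as a gene downstream of PAX6.

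The only hairpin oligonucleotide against Pax6 in the study's oligonucleotide list is shown because it names the site of the perturbation, although the labels do not state which hairpin was used on the arrays. Its capitals mark the loop between the paired arms and the run of T bases that ends transcription, with the base after it.
Pax6sh896FOR: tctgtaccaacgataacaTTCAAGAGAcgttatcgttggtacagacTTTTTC
Pax6 itself lay at 8.79, 8.82 and 8.81 in the control arrays and at 8.48, 8.30 and 8.50 in the knockdown arrays, in log2 units of the robust multi-array average (RMA). It fell by 0.38 on the log2 scale (SE 0.071, adjusted p = 0.0382 by limma over all tested genes), a reduction of 23.2%, with no overlap between the groups. That call was lost without control replicate 1, 2 or 3, at adjusted p = 0.120, 0.180 and 0.141, and without knockdown replicate 3, at 0.126, while the difference itself stayed between -0.42 and -0.37 in those 4 fits. In bulk RNA, fewer cells with a transcript and less of it per cell cannot be told apart.

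The line carried its markers. Of the 11 neuroblastoma and neuronal markers listed, 9 were measured, and all 9 lay above the array medians, with mean levels from 10.1 to 13.5. Of these, 2 passed the threshold of 10% false discovery rate (FDR) used throughout as lower after knockdown and 0 as higher. Of all tested genes, 3.88% passed as lower and 2.79% as higher. The 2 were Chga, a protein of secretory granules, at -0.30 (SE 0.060, adjusted p = 0.0463) and Isl1, a transcription factor of sympathetic neurons, at -0.35 (SE 0.076, adjusted p = 0.0571). Neither Chga nor Isl1 passed when control replicate 1, 2 or 3 or knockdown replicate 3 was left out, at adjusted p from 0.126 to 0.222 and with differences from -0.40 to -0.27. The 9 markers did not all move one way: 4 differences were negative, and the median was 0.0077. In these 4, Hand2, Gata3, Isl1 and Chga, every knockdown array lay below every control array, against 11.7% of all tested genes. For Tubb3 every knockdown array lay above every control array. By limma, 3 of the 9, Gata3 (-0.21, SE 0.070, adjusted p = 0.150), Isl1 and Chga, had an unadjusted p under 0.05 as lower. As higher there was 1, Insm1, at 0.22 (SE 0.085, adjusted p = 0.205). The part of the line's own markers in the family's values was not tested. Since Olfml3 is known from microglia, and family members also from vessels, connective tissue and glia, markers of those cells were read too. Above the median lay 2 of 10 microglia and macrophage markers, 4 of 9 fibroblast and mural cell markers, 1 of 5 endothelial markers and 2 of 4 measured Schwann cell and glial markers. Array values have no true zero. The mean log2 level over the microglial list was 6.67 to 6.71 in control and 6.53 to 6.74 in knockdown arrays. It was 7.40 to 7.49 against 7.36 to 7.47 for the fibroblast list, 6.72 to 6.89 against 6.73 to 6.998 for the endothelial list and 7.20 to 7.31 against 7.24 to 7.34 for the glial list. The ranges of the groups overlapped for each of these lists, and none of their 9 tested genes passed the threshold. By limma, 1 of the 9, the mural cell receptor gene Pdgfrb, had an unadjusted p under 0.05, with a higher level after knockdown by 0.19 (SE 0.057, adjusted p = 0.116). It passed with the replicate block, at 0.0661, and without knockdown replicate 2, at 0.0747, where the endothelial gene Pecam1 also passed as higher, at 0.0987. With array weights Pdgfrb and Pecam1 passed as higher and the microglial gene Tmem119 as lower, at 0.00565, 0.0127 and 0.0319. Among the markers of these lists that were not tested, every knockdown array lay below every control array for Dcn, Cd68 and Aif1. This held for 7.91% of all genes measured and for 11.7% of the tested genes, so the share among genes not tested was below 7.91%. In a fit to all genes Dcn, Cd68 and Aif1 differed by -0.33 (SE 0.093), -0.24 (SE 0.098) and -0.098 (SE 0.062), at adjusted p = 0.208, 0.414 and 0.693. For the other markers that were not tested the groups overlapped. The part of such cells in the family's values was not tested.

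Olfml3 was the member with by far the largest difference. Its log2 values were 11.71, 11.62 and 11.51 in control replicates 1, 2 and 3 and 10.39, 10.37 and 10.38 in the knockdown replicates. The means were 11.61 ± 0.099 and 10.38 ± 0.013 (SD, n = 3 each). The groups were separated by 1.12, from the lowest control to the highest knockdown array. The difference was -1.23 on the log2 scale (SE 0.067), so the knockdown level was 2.35-fold lower, a fall of 57.5%. Taken by replicate number, the differences were -1.32, -1.26 and -1.13. The spread lay almost wholly among the controls, and the knockdown arrays were nearly level. When any 1 array was left out, the difference stayed between -1.29 and -1.19.

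Among the 11424 genes that passed the filter on low values, which asked for a value above the array-wide median on at least 3 of the 6 arrays, Olfml3 held the 6th lowest difference. Just above it in that order stood Ptprr, a tyrosine phosphatase gene, at -1.29 and Chst15, the gene of a chondroitin sulphate sulphotransferase, at -1.27. Just below it stood Fxyd5, a regulator of the sodium pump, at -1.22 and Dbh, the enzyme that makes noradrenaline, at -1.08. Only 9 genes that passed the FDR threshold were at least 2-fold lower, and 0 were at least 2-fold higher. The nearest measured genes on either side of Olfml3 differed far less. Hipk1, a kinase gene on the side of the Olfml3 start, differed by 0.06 (SE 0.070, adjusted p = 0.748), and Syt6, a synaptotagmin gene on the other side, by -0.11 (SE 0.065, adjusted p = 0.413).

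**Figure D1:**
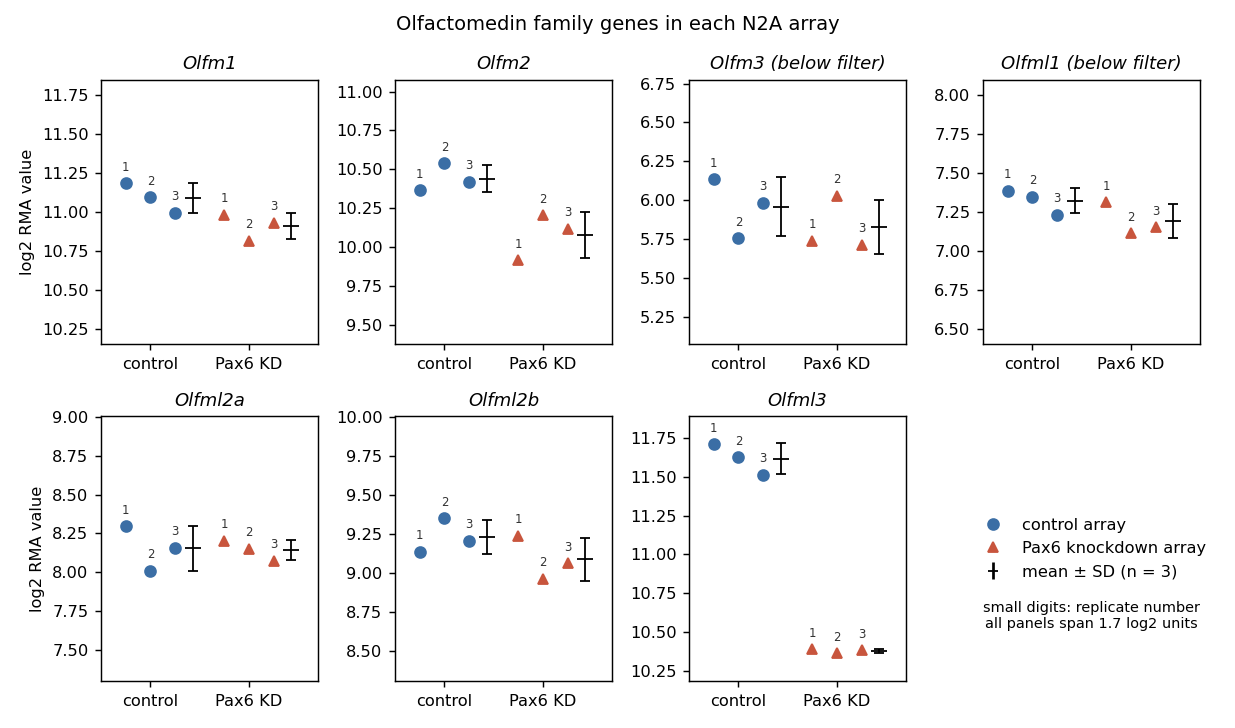
The log2 RMA value of each family member (vertical axis) is plotted for every control (circles) and Pax6 knockdown (triangles, KD) array, with the mean and SD of each group beside its points. All panels span the same log2 range, and the separation of the groups is wide for Olfml3, small for Olfm2, 0.012 for Olfm1 and absent for the other 4 genes.

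Among the paralogs, only the noelin gene Olfm2 passed the threshold in the fit as reported. Its log2 values were 10.37, 10.54 and 10.42 in control and 9.91, 10.21 and 10.12 in knockdown arrays. Every knockdown array lay below every control array, by at least 0.16. Olfm2 fell by 0.36 on the log2 scale (SE 0.089, 95% confidence interval -0.57 to -0.16, adjusted p = 0.0760), a reduction of 22.2%. The differences within replicate numbers were -0.45, -0.33 and -0.30. In order of fall it stood 252nd of all tested genes, and its difference was close to the median of -0.36 among the 443 genes that passed as lower. The call depended on the arrays: leaving out control replicate 1, 2 or 3 gave an adjusted p of 0.157, 0.279 or 0.203, and leaving out knockdown replicate 1 or 3 gave 0.119 or 0.219, while the difference stayed between -0.40 and -0.28 in those 5 fits. With the replicate number as a block it was 0.0155. Over all alternatives it ran from 0.00396 to 0.289.

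Olfm1, the noelin gene known for its part in neural crest and axon growth, moved less. Its values were 11.18, 11.09 and 10.99 in control and 10.98, 10.82 and 10.93 in knockdown arrays. The lowest control array stood only 0.012 above the highest knockdown array. The difference of -0.18 (SE 0.075, 95% confidence interval -0.35 to -0.0083) did not pass the threshold, at adjusted p = 0.245, and its confidence interval bounds any reduction at 0.35 log2 units. With array weights, which give noisier arrays less influence, it passed, at adjusted p = 0.0966.

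Olfm3, the optimedin gene, was near the lower end of the array's range and was not tested in the filtered table. Its values were 6.13, 5.76 and 5.98 in control and 5.74, 6.03 and 5.72 in knockdown arrays, and the groups overlapped. The difference was -0.13 (SE 0.12, 95% confidence interval -0.41 to 0.15), with adjusted p = 0.860 in a fit to all genes without the filter. The interval bounds any fall of Olfm3 at 0.41 log2 units, on a scale that RMA compresses near background.

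The photomedin genes did not pass either. Olfml2b had values of 9.14, 9.35 and 9.21 in control and 9.24, 8.96 and 9.06 in knockdown arrays, and knockdown replicate 1 lay above 2 of the controls. The difference was -0.14 (SE 0.090, 95% confidence interval -0.35 to 0.064, adjusted p = 0.452), while array weights gave adjusted p = 0.0515. Its differences within replicate numbers had mixed signs, at 0.10, -0.39 and -0.15. Olfml2a had values of 8.30, 8.01 and 8.16 in control and 8.20, 8.15 and 8.07 in knockdown arrays, so that all knockdown values fell inside the range of the controls. Its difference was -0.011 (SE 0.084, 95% confidence interval -0.21 to 0.18, adjusted p = 0.964). It turned positive without control replicate 1, at 0.060, and without knockdown replicate 3, at 0.023.

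Olfml1, the gene of another secreted glycoprotein, had values of 7.39, 7.35 and 7.23 in control and 7.31, 7.11 and 7.15 in knockdown arrays. It lay below the low-value filter. The groups overlapped through knockdown replicate 1, and the difference was -0.13 (SE 0.081, 95% confidence interval -0.32 to 0.056), with adjusted p = 0.690 in the fit without the filter.

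Of the 7 members, 5 were tested and 2 lay below the filter. Olfml3 is left out of the counts that follow, since its values selected the set. Of the 4 tested paralogs, 1 passed 10% FDR as lower and 0 as higher, against 3.88% of all tested genes lower and 2.79% higher. By limma, 2 of the 4, Olfm2 and Olfm1, had an unadjusted p under 0.05 as lower and 0 as higher, against 9.45% of all tested genes lower and 9.34% higher. In the same 2 of 4, every knockdown array lay below every control array, against 11.7% of all tested genes, or 7.91% of all genes measured. The differences of all 6 paralogs were negative, whereas 45.1% of all 19938 genes had a negative difference. These are few genes, and the counts are a description. Members below the filter contribute signs within their own error, and Olfml2a lost its sign when single arrays were left out. The median difference of the 4 tested paralogs was -0.16, and -0.18 with Olfml3 added, beside a median of 0.017 over all tested genes. None of the paralogs approached the difference of Olfml3: the lower bound of the Olfm2 interval, -0.57, was the lowest of theirs.

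**Figure D2:**
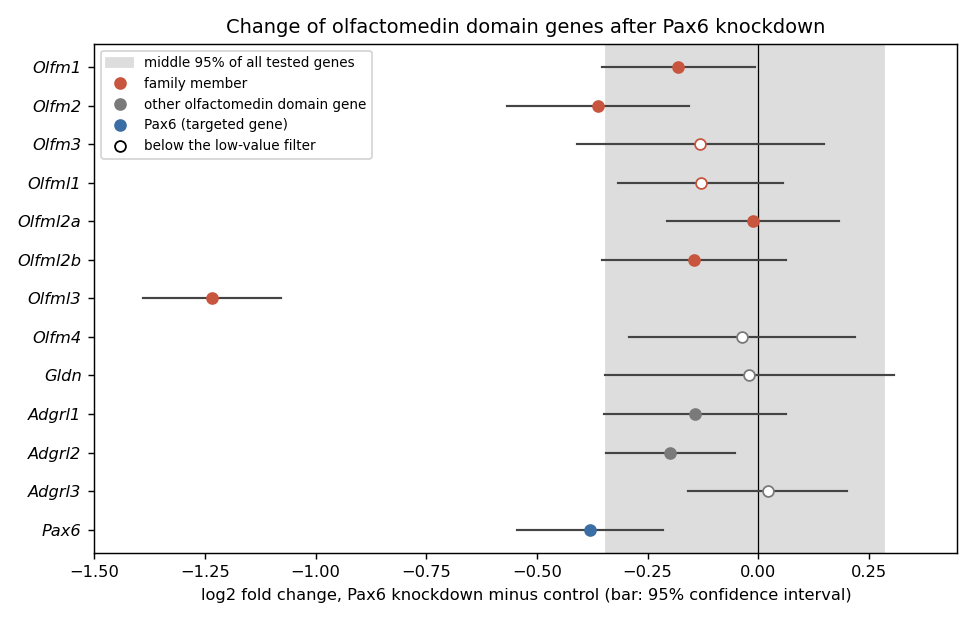
The log2 fold change of each olfactomedin domain gene and of Pax6, knockdown minus control, is plotted as a point with its 95% confidence interval, with open points for genes below the low-value filter. The grey band holds the middle 95% of all tested genes, from -0.34 to 0.28. Olfml3 stands apart at -1.23, and Olfm2 lies at the edge of the band beside Pax6.

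The bases before the transcript starts of Olfml3 and Olfm2, the members with the lowest differences, are shown. The members' promoters were searched for a PAX6 paired domain core and for homeodomain sites. They come from RefSeq, build GRCm38.p6, and run 5′ to 3′ on the gene's strand up to the last base before the start. Capitals mark GC boxes (GGGCGG on either strand), the sites of SP1 family factors. The Olfml3 sequence is chr3:103738002-103738251 and the first of the Olfm2 starts is chr9:20746297-20746546, both on the minus strand.
Olfml3: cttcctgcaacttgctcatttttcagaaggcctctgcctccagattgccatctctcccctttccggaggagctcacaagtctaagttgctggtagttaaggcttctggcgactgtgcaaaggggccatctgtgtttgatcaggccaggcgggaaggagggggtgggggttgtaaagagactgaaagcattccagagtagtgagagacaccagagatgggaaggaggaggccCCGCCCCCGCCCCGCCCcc
Olfm2: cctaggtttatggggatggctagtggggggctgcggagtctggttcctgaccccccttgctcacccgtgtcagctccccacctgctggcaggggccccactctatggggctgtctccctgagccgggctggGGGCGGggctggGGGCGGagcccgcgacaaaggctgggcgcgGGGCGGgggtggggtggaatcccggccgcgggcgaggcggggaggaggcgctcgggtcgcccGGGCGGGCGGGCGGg
The Olfml3 window held 3 GC boxes, the last pair sharing 1 base, all on the strand opposite the gene and within 19 bases of the start, with 57.6% G and C and 6 CpG dinucleotides. The Olfm2 window held 6, of which 3 overlap one another next to the start, with 76% G and C and 22 CpG. Over all 32851 promoters the median was 52.4% G and C and 6 CpG. All 7 members matched, with 11 starts. At least 1 GC box was found in 8 of these 11 windows, among them windows of Olfm1, Olfm3, Olfml2a and Olfml2b, against 32.7% of all promoters. A GC box is all G and C, and the share over all promoters was not matched for base content. G and C made up 69.2% of both Olfm1 windows, 61.6% for Olfml2a, 69.6% for Olfml2b, 74.8% for the third Olfm2 start and 44% for the Olfm3 window with a box. The windows without a box held 50% for Olfml1, 51.2% for Olfm3 and 51.6% for Olfm2. The starts of 1 gene can share bases and are not independent. The PAX6 paired domain core TTCACGC was in 0 of the 11 windows and in 1.03% of all. A palindromic homeodomain site, TAAT and ATTA on either side of a 2-base spacer, was also in 0, against 0.384%. Other spacings of TAAT and ATTA were not searched, so sites of PAX6 with another spacing were not read. The shorter homeodomain core TAATTA, which can overlap the palindromic site, was in 0, against 4.84%. The TATA box TATAAA was likewise in 0, against 12.4%. Each motif was searched on both strands in the 250 bases before the start, and no match says only that these letters are not in that window.

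Outside the 7 members, 5 of the 6 other genes listed with an olfactomedin domain were measured. None passed the threshold. By limma, 1 of the 2 tested, the latrophilin gene Adgrl2, had an unadjusted p under 0.05 as lower, against 9.45% of all tested genes. Latrophilins are adhesion receptors that carry the domain on their outer part and bind teneurins and FLRT proteins across synapses. Adgrl2 had values of 12.45, 12.57 and 12.51 in control and 12.37, 12.31 and 12.26 in knockdown arrays, with no overlap. Its difference was -0.20 (SE 0.063, adjusted p = 0.137), which passed the threshold with the 75th percentile filter at 0.0617, with array weights at 0.00522, with a trended and robust prior at 0.0556 and with the replicate block at 0.0826. Adgrl2 had 8 probe sets, and 6 of them had a lower mean after knockdown and 2 a higher one, with differences from -0.35 to 0.028. In 5 of the 8, every knockdown array lay below every control array, against 11.7% of all tested genes. The 8 sets read 1 gene on the same 6 arrays and are not independent. Adgrl1 differed by -0.14 (SE 0.089, adjusted p = 0.453), and 0.0755 with array weights. Adgrl3, at 0.021 (SE 0.078), Olfm4, a secreted protein of gut crypts and neutrophils, at -0.037 (SE 0.11), and Gldn, the gliomedin of nodes of Ranvier, at -0.021 (SE 0.14), lay below the filter.

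**Figure D3:**
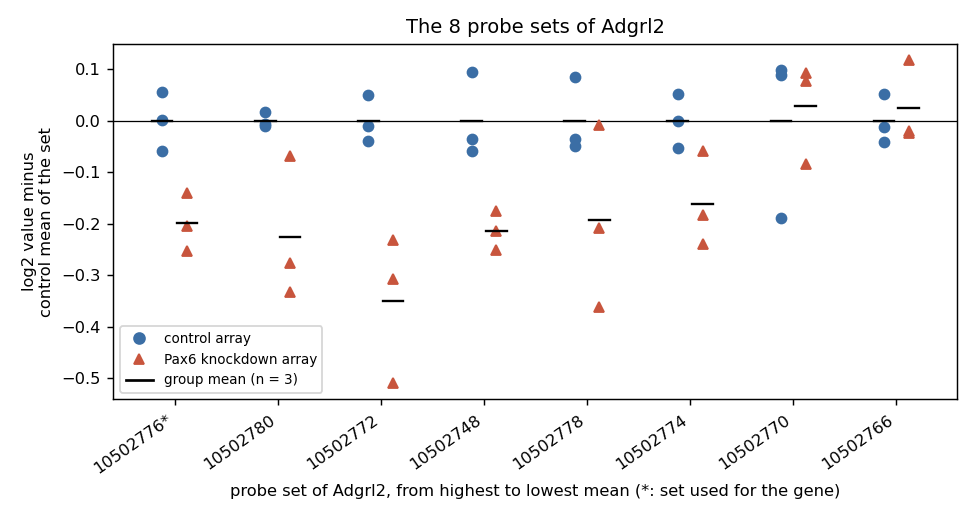
The 3 control (circles) and 3 knockdown (triangles) arrays are plotted for each of the 8 Adgrl2 probe sets as log2 value minus the control mean of that set, with short lines for group means. The 6 sets with the highest mean signal lie lower after knockdown and the 2 dimmest do not.

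The known partners of these proteins were read as 4 lists with 33 tested genes, of which 10 passed the threshold as lower and 0 as higher, against the 3.88% and 2.79% of all tested genes. The lists were chosen with earlier results of these data known, so the counts are a description. The share over all genes also depends on level. With the 75th percentile filter, 8 of 15 partner genes passed as lower, beside 517 of 5982 genes. By limma, 14 of the 33 had an unadjusted p under 0.05 as lower and 1 as higher, against 9.45% and 9.34% of all tested genes. The median difference of the 33 was -0.067, and the medians of the single lists differed in how far they lay from the 0.017 of all tested genes. Without control replicate 2 or without knockdown replicate 3, 0 of the 33 passed, with 13 and 14 genes at an unadjusted p under 0.05. The number was 1 without control replicate 3, 5 without control replicate 1, 6 without knockdown replicate 1 and 12 without knockdown replicate 2. The calls over all genes moved as widely, from 762 to 51 without control replicate 2 and to 56 without knockdown replicate 3. The differences moved less than the calls: with any 1 array left out, that of each of the 10 genes stayed negative, for example from -0.55 to -0.45 for Vcan and from -0.41 to -0.33 for Ngfr.

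Of the noelin partners, 9 of 14 were tested and 2 passed as lower, while the median was -0.0091. Ngfr, the neurotrophin receptor that signals with the Nogo receptor, had values of 12.06, 12.24 and 12.15 in control and 11.75, 11.83 and 11.76 in knockdown arrays, a difference of -0.37 (SE 0.067, adjusted p = 0.0364). Gria2, the AMPA receptor subunit that sets calcium permeability, had values of 9.97, 9.94 and 9.92 in control and 9.69, 9.22 and 9.39 in knockdown arrays, a difference of -0.51 (SE 0.11, adjusted p = 0.0571). The knockdown arrays of Gria2 were spread widely, and its controls hardly at all. Of the partners of latrophilins and gliomedin, 10 of 13 were tested and 3 passed as lower, with a median of -0.12. These were Nfasc, the neurofascin that gliomedin binds at nodes, at -0.34 (SE 0.072, adjusted p = 0.0540), the teneurin Tenm3 at -0.33 (SE 0.072, adjusted p = 0.0600) and the netrin receptor Unc5c, a partner of FLRT proteins, at -0.29 (SE 0.072, adjusted p = 0.0782).

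Of the BMP and tolloid genes, which hold the known context of Olfml3, 11 of 17 were tested and 3 passed as lower, with a median of -0.029. Id2 and Id3, transcriptional inhibitors that BMP signals induce, differed by -0.46 (SE 0.085, adjusted p = 0.0371) and -0.30 (SE 0.070, adjusted p = 0.0651). Id1, a gene of the same family, did not fall, at 0.061 (SE 0.085, adjusted p = 0.785). Bmpr2, a BMP receptor, differed by -0.37 (SE 0.087, adjusted p = 0.0700). Bmp1 did not pass, at -0.20 (SE 0.059, adjusted p = 0.120), with all knockdown arrays below all control arrays. Chrd, the chordin gene, lay below the filter, at -0.044 (SE 0.094). Bmpr1b, also below it, differed by -0.44 (SE 0.10, adjusted p = 0.141) with no overlap. The other genes of the list below the filter, Tll1, Tll2, Bmp2 and Bmp4, had positive differences. Of the 11 tested genes, 8 had a negative difference. By limma, 4 had an unadjusted p under 0.05 as lower and 1 as higher, Smad1, at 0.20 (SE 0.070, adjusted p = 0.180). With the replicate block, 4 genes of this list passed as lower and 1 as higher. Of the chondroitin sulphate proteoglycans, the class of molecule that photomedins bind, 3 of 7 were tested and 2 passed as lower, with a median of -0.29. Vcan, the versican gene, had values of 11.30, 11.41 and 11.43 in control and 11.03, 10.83 and 10.82 in knockdown arrays, a difference of -0.48 (SE 0.077, adjusted p = 0.0242). Ncan, the neurocan gene, differed by -0.29 (SE 0.077, adjusted p = 0.0932), and did not pass when the arrays were centred on their medians, at 0.131. In each of the 10 genes, all knockdown arrays lay below all control arrays, but these genes were picked as lower on the same arrays. Of all 33 tested partner genes this held for 14, against 11.7% of all tested genes.

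**Figure D4:**
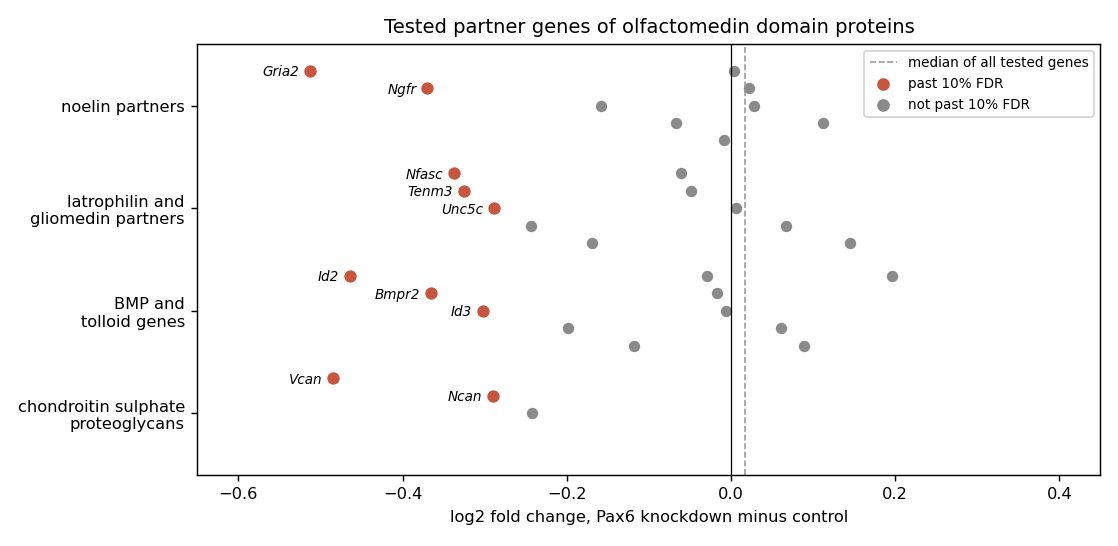
The log2 fold change of each tested partner gene (points, horizontal axis) is plotted by list, with named red points for genes past 10% FDR, grey points for the others and a dashed line at the median of all tested genes. All red points lie to the left, between -0.51 and -0.29, and the grey points lie on both sides of 0.

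The genes whose values over the 6 arrays followed Olfml3 most closely were Dbh (Pearson's r = 0.997), the lysosomal sulphatase gene Sgsh (0.997), the splicing regulator gene Rbm10 (0.997), Chst15 (0.997) and the leucine-rich repeat gene Lrrn4 (0.996). These correlations describe 6 arrays that share the contrast between the groups, so any gene with a difference larger than its spread scores high. After each group's mean was taken away, r with Olfml3 was 0.876 for Dbh, 0.547 for Sgsh, 0.858 for Rbm10, 0.815 for Chst15 and 0.430 for Lrrn4. The SD of Olfml3 was 0.099 in control and 0.013 in knockdown arrays. Every r within groups, for these genes and for the paralogs below, therefore rests mostly on the few control arrays. Rbm10 differed by only -0.13 and did not pass the threshold. The tested paralogs stood lower in the same order, which holds the 11424 tested genes without Olfml3. Over the 6 arrays r was 0.862 for Olfm2, 0.822 for Olfm1, 0.571 for Olfml2b and 0.097 for Olfml2a, at ranks 754, 956, 2130 and 4554, and Pax6 stood at rank 281 with 0.942. Within groups, r with Olfml3 was 0.826 for Olfm1, 0.380 for Olfml2a, -0.058 for Olfml2b, -0.211 for Olfm2 and 0.036 for Pax6.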

How the data were processed

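Expression was measured on 6 whole-transcript mouse gene arrays (Affymetrix Mouse Gene 1.0 ST), 3 control and 3 Pax6 knockdown. The authors deposited log2 values for 35556 probe sets, made per the study's methods by RMA background correction and quantile normalization, which hides changes in total RNA and compresses differences near background. Versions and annotation build are not given in the sources used here. Array medians lay between 7.49 and 7.59, and 6 arrays limit the precision. Probe sets with 1 gene symbol in the platform annotation were kept (21789, with 1621 naming several genes and 12146 none), and the set with the highest mean over the 6 arrays stood for a gene. A gene was tested if it lay above the array-wide median on at least 3 arrays (11424 of 19938 genes).

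The groups were compared in limma 3.58.1, under R 4.3.3 (lmFit and eBayes, two-sided moderated test, Benjamini-Hochberg adjustment over all tested genes, 10% FDR, the study's threshold). Differences are log2 knockdown less log2 control, with the SE of that fit. Genes below the filter come from the fit without it, and their adjusted p is over all genes. The scripts were tested on simulated data.

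The members and the lists were chosen with earlier results of these data known. The text names Pax6, the members, the measured genes of the same domain, up to 4 genes past the threshold in each partner list, the 5 genes most correlated with Olfml3 and the 2 genes on either side of it in order of change. The genes nearest to Olfml3 on the chromosome and the probe sets of Adgrl2 were added after values were seen. So were Id1, Smad1, the other BMP and tolloid genes named that did not pass, and the markers Pdgfrb, Insm1, Hand2, Gata3, Tubb3, Dcn, Cd68 and Aif1. Alternatives were other filters on low values, array centring, array weights, a trended and robust prior, the mean of a gene's probe sets, the replicate block and leaving out each array. Deviations from the group means correlated within replicate numbers at 0.574, 0.323 and 0.230, so a fit that blocks on replicate number is given as an alternative. The reported values, SE and adjusted p are from the unpaired fit unless the block is named. No source states a batch behind them, and control replicate 3 with knockdown replicate 2 also reached 0.178. Promoters are 250 bases before each RefSeq start (GRCm38.p6). A few listed genes are not reported here.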

Additional observations from a re-analysis of the deposited data

How the results depend on the processing

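Olfml3 kept its direction under all 15 alternatives, from -1.29 to -1.19 on the log2 scale. The 762 genes past 10% FDR became 245 with no filter on low values, 389 with the 25th percentile filter, 127 with the variance filter, 4239 with array weights, whose estimation stopped before it converged, 2042 with the replicate block and 51 to 1285 when 1 array was left out. Counted with Olfml3, whose values chose the set, 2 members passed as reported and with the replicate block, 1 with no filter, the 25th percentile filter or the variance filter, 4 with array weights and 1 to 2 when 1 array was left out. Of the 33 partner genes, 10 passed as reported, 3 with no filter, 5 with the 25th percentile filter, 2 with the variance filter, 20 with array weights, 14 with the replicate block and 0 to 12 when 1 array was left out. Small differences turned sign when 1 array was left out, over -0.084 to 0.060 for Olfml2a, -0.11 to 0.065 for Olfm4, -0.15 to 0.098 for Gldn, -0.040 to 0.059 for Adgrl3, -0.10 to 0.014 for Col3a1, -0.081 to 0.024 for Sox10 and -0.092 to 0.042 for Mbp. With array weights Adgrl3 was -0.0021. The causes were not tested.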
